A study of Mus musculus with 24 samples.

Results

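Pdgfra, Kit and Kdr encode 3 receptor tyrosine kinases and lie next to each other on mouse chromosome 5, with no other protein-coding gene between them. Accessible chromatin around them was followed from naive embryonic stem cells to a cardiomyocyte stage. A region belonged to the cluster if a peak summit in it fell inside the body of 1 of the 3 genes. A summit in no protein-coding gene also counted if 1 of the 3 was the nearest protein-coding gene body within 200 kb. This gave 51 regions of 128693 merged from all peak lists, holding 178 of 518537 peaks. Kdr had 25 of the regions, Kit had 15 and Pdgfra had 11.

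The cells were of the A2lox.cre line, an established mouse embryonic stem cell line, with no genotype difference between the groups. ATAC-seq, which inserts sequencing adapters into open DNA with a transposase, was done on 24 samples, 2 biological replicates at each of 12 time points. These were the 2i stage, a culture that holds stem cells in naive pluripotency, then days 0 to 8 of cardiac differentiation (D0 to D8), D10 and D15. Culture thus differed between 2i and the differentiation days, and its part cannot be told apart from that of time. The labels call the cells embryonic stem cells at 2i, intermediates at D0 to D8 and cardiomyocytes at D10 and D15. Both replicates share 1 peak list, so each value below belongs to a list and has no replicate spread. Differences between 2 time points therefore could not be tested. A region is called at a time point when a peak of that list overlaps it, and a region that is not called is not shown to be closed. In such bulk samples, fewer cells with an open site and a less open site in each cell cannot be told apart.

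Pdgfra is the receptor for the growth factors PDGF-A and PDGF-C and marks paraxial and cardiac mesoderm, and later many fibroblasts. Kit binds stem cell factor and is known from germ cells, melanocytes, mast cells and blood progenitors. Kdr, also called Flk1 or VEGFR2, is the main signalling receptor for VEGF-A and marks early mesoderm before it becomes largely endothelial. Cells that carry both Pdgfra and Kdr are commonly sorted as cardiac mesoderm from differentiating stem cells. All 3 receptors have an extracellular part of immunoglobulin domains and a kinase split by an insert, and their genes are thought to stem from duplication of an ancestral gene.

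On mm10, Pdgfra spans chromosome 5, 75151322 to 75198206, on the plus strand. Kit spans 75574987 to 75656722 on the plus strand, and Kdr 75932827 to 75979072 on the minus strand. The gap between the Kit and Pdgfra bodies is 376.8 kb and that between the Kdr and Kit bodies is 276.1 kb. Distances below run from the annotated transcript start to the centre of a region, upstream or downstream in the direction of transcription. The annotation at hand gave gene bounds and starts but no exons, so exon, intron or UTR could not be assigned. Peaks lay over the annotated starts of Kit and Kdr in every list and over that of Pdgfra in none. For Pdgfra the 1 start at hand, 75152251, lies inside the body, whose upstream bound was overlapped by a region called at D7 alone. The sequences around the annotated starts are shown because the 3 genes differed there. They are RefSeq windows of GRCm38.p6, the assembly that mm10 names, from 250 bases before to 50 after the start, 5′ to 3′ on the gene's own strand. Capitals mark matches to 9 short motifs searched on both strands, each spelled out after the sequences.
Pdgfra: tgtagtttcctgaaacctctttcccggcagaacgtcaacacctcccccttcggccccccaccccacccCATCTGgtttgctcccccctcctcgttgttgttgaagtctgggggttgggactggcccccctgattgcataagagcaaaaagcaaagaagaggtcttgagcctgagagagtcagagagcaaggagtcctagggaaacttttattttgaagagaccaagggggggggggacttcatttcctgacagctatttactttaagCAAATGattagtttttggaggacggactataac
Kit: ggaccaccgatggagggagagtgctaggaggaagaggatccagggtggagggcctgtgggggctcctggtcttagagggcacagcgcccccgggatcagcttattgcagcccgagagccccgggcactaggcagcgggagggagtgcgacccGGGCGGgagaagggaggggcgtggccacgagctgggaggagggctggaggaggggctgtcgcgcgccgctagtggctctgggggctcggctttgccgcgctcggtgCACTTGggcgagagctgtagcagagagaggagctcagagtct
Kdr: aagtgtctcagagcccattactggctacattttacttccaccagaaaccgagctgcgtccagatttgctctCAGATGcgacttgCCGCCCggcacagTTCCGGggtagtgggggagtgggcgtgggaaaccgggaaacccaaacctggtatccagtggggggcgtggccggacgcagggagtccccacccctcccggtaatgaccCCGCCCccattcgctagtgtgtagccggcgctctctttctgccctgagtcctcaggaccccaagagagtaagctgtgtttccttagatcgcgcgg

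The windows are chr5:75152001-75152300 for Pdgfra, chr5:75574737-75575036 for Kit and chr5:75978406-75978705 for Kdr. Kit has a second annotated start, 75574991, whose window largely repeats the first. The Pdgfra window was 51% G and C with 5 CpG dinucleotides. That of Kit was 69.0% G and C with 20 CpG, and that of Kdr 60.7% with 19 CpG. Over all 32619 such windows of the genome the median was 53% G and C with 7 CpG. Pdgfra was thus close to the median window, and Kit and Kdr were CpG-rich. The Kdr window held 2 GC boxes, 166 and 45 bases before the start, an ETS match 153 bases before it and 1 E-box. The Kit window held 1 GC box, 98 bases before the start, and 1 E-box. The Pdgfra window held 2 E-boxes and none of the other motifs. Among all windows, 35.9% hold the GC box searched, GGGCGG, and 15.0% the letters CCGGAA that ETS factors bind. An E-box, searched as CANNTG, is in 72.3%. The other motifs were in no member window. Of these the CCAAT letters are in 37.6% of all windows and the TATAAA letters in 13.7%. The AGATAA letters of GATA factors are in 11.2%. The T-box letters TCACACC are in 3.98%, the forkhead letters GTAAACA in 3.67%, and the POU octamer ATGCAAAT in 1.75%. None of the motifs found overlapped another. A match is a description of these letters and does not show that a factor bound there.

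Peaks overlapped the Kit and Kdr windows in all 12 lists, as they did 31.0% of all windows. They overlapped the Pdgfra window in no list, as in 47.1% of all windows. Around the Kdr start the region of chromosome 5, 75977652 to 75979093, was called throughout. Its highest summit lay at -82 to 143 bases from the start, counted in the direction of transcription, so it stayed at the start in every list. The Kit start lies in a region called throughout, 75574376 to 75576149. Its highest summit ranged from -225 bases at D1 to 244 bases at 2i. Pdgfra also had 1 region called throughout, 75155568 to 75157024, but inside the gene and centred 4.0 kb downstream of the annotated start. Its highest summit stayed within 3757 to 3986 bases of the start.

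The authors' fold enrichment, a linear ratio of signal to background at the summit, is the caller's own value within a list. For the Kdr start it was 7.43 at 2i, then in order 6.68, 7.17 and 8.99 on D0 to D2, and 15.7 on D3. It was 7.45 on D4, in order 10.6, 10.6, 11 and 9.50 on D5 to D8, and 6.90 and 6.98 on D10 and D15. Within its own list the Kdr start stood between the 68.9th percentile of peaks, at D10, and the 86.6th, at D7. For the Kit start the fold enrichment was 3.98 at 2i, in order 4.54, 4.99 and 7.54 on D0 to D2, and 13.4 on D3. It was 6.23 on D4, in order 7.45, 8.49, 7.99 and 6.75 on D5 to D8, and 5.91 and 5.78 on D10 and D15. Within its list the Kit start was at the 79.0th percentile at D3, its highest, against the 22.5th at 2i, its lowest. For the Pdgfra region it was 7.67 at 2i, in order 5.77, 4.98 and 6.01 on D0 to D2, and 9.13 on D3. It was 4.81 on D4, in order 5.87, 5.90, 6.52 and 4.76 on D5 to D8, and 4.01 and 5.92 on D10 and D15. It stood between the 34.4th percentile at D10 and the 83.8th at 2i. The value was highest at D3 in all 3 regions, and so it was at the starts of the flanking genes Srd5a3, with 20.8, and Chic2, with 15.7. The D3 list as a whole had the highest median fold enrichment, 6.39, against 4.75 to 5.54 in the other lists. Fold enrichments are therefore not compared between lists.

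**Figure D1:**
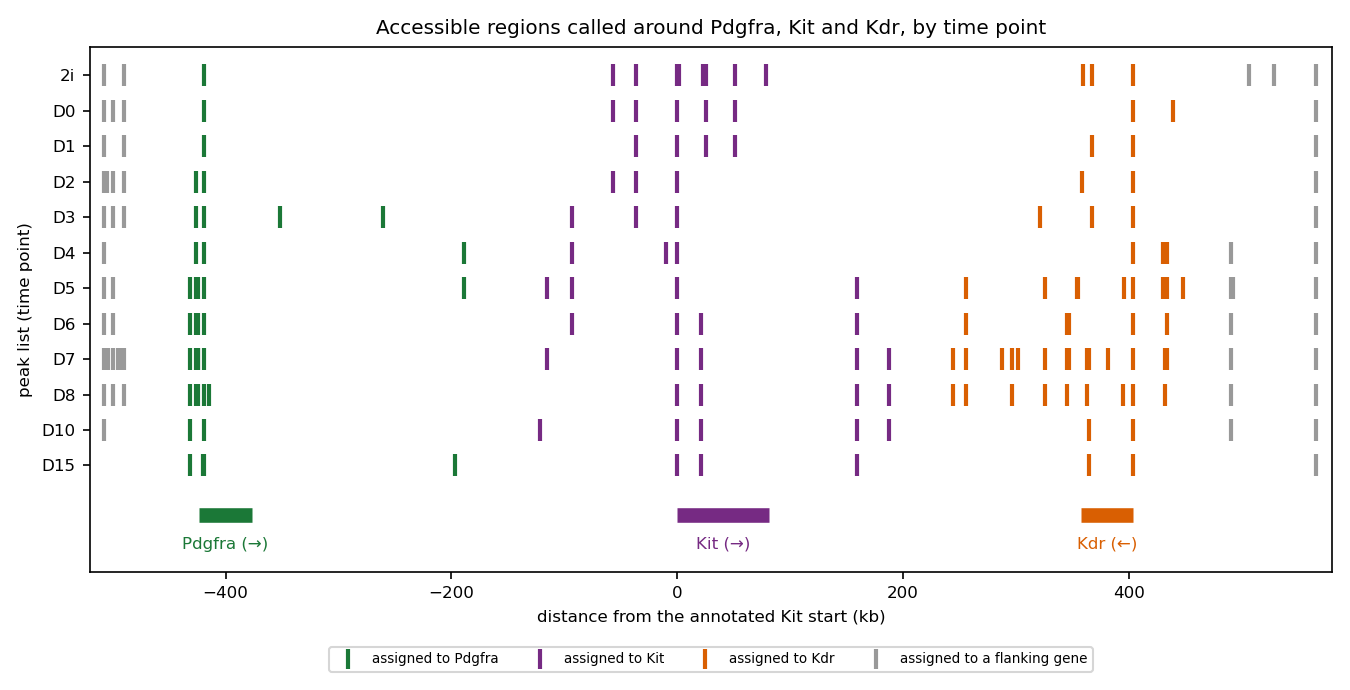
Regions called in each peak list, from 2i at the top to D15 at the bottom, by distance in kb from the annotated Kit start. Each tick is a called region, coloured by the gene it was assigned to, grey ticks belong to flanking genes, and bars at the bottom are the gene bodies with their direction of transcription. The starts of Kit and Kdr have a tick in all 12 lists, and the stretch between Kit and Kdr is empty from 2i to D2.

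Away from the regions called throughout, the 3 genes differed in when their sites were called. Kit had 4 merged regions called at 2i and D0 and at neither D10 nor D15. Kdr had many sites called at D5 to D8 and not later. Pdgfra had a run of sites upstream of its start, the first called at D2. The list of 12 called regions at 2i held 8 of Kit, against 1 of Pdgfra and 3 of Kdr. At D7 it held 14 of Kdr, 5 of Kit and 5 of Pdgfra. Of all regions, 31.7% were called at 2i and 44.6% at D7, the longest list. With the 30000 strongest peaks of each list, 2i held 6 of Kit, 1 of Pdgfra and 1 of Kdr. D7 then held 3 of Kdr, 3 of Kit and 2 of Pdgfra.

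Over the whole cluster 12 of the 51 regions were called at 2i, and in order 8, 7, 7, 10 and 9 on D0 to D4. There were 18, 13, 24 and 18 on D5 to D8 and 9 on each of D10 and D15. As shares of the 51 these were 23.5% at 2i, 17.6% at D4, 35.3% at D5, 47.1% at D7 and 17.6% at D15. Of all 128693 regions, 31.7% were called at 2i, and in order 27%, 20.9%, 25.2%, 27% and 38.0% on D0 to D4. The shares of all regions were 29.0%, 21.6%, 44.6% and 34.9% on D5 to D8, and 20.2% and 19.5% on D10 and D15. The high count at D7 thus goes with a long list, of 66993 peaks, and the cluster's share there was near that of all regions. With all peaks the shares lay furthest apart at D4, where the cluster had 17.6% of its regions called, against 38.0% of all regions. From D3 to D4 the cluster gained few calls, with 4 regions (7.84%) called on D4 and not on D3, against 21.9% of all regions. On D5, 10 regions (19.6%) were called that were not called on D4, against 9.61% of all regions. Of those called on D8, 11 (21.6% of the 51) were not called on D10, against 16.9% of all regions. With the same 30000 strongest peaks of each list, 6 to 8 of 31 cluster regions were called in every list but D6, which had 12 (38.7%). Of all regions, 26.7% to 35.0% were called per list at that length, with 33.1% at D6. The gap at D4 was then no longer the widest, with 22.6% of the cluster regions against 33.8% of all. At D1 these shares were 19.4% and 33.5%. Where −log10 q was 5 or more, 9, 10, 11 and 12 of 28 cluster regions were called on D5 to D8, against 3 to 7 in each of the other lists. These were in order 32.1%, 35.7%, 39.3% and 42.9%, against 35.3%, 25.3%, 55.6% and 40.0% of all regions. The larger counts at D5, D7 and D8 were thus absent at equal list length. They were present above this threshold, where the cluster's share was below that of all regions at D5 and D7.

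**Figure D2:**
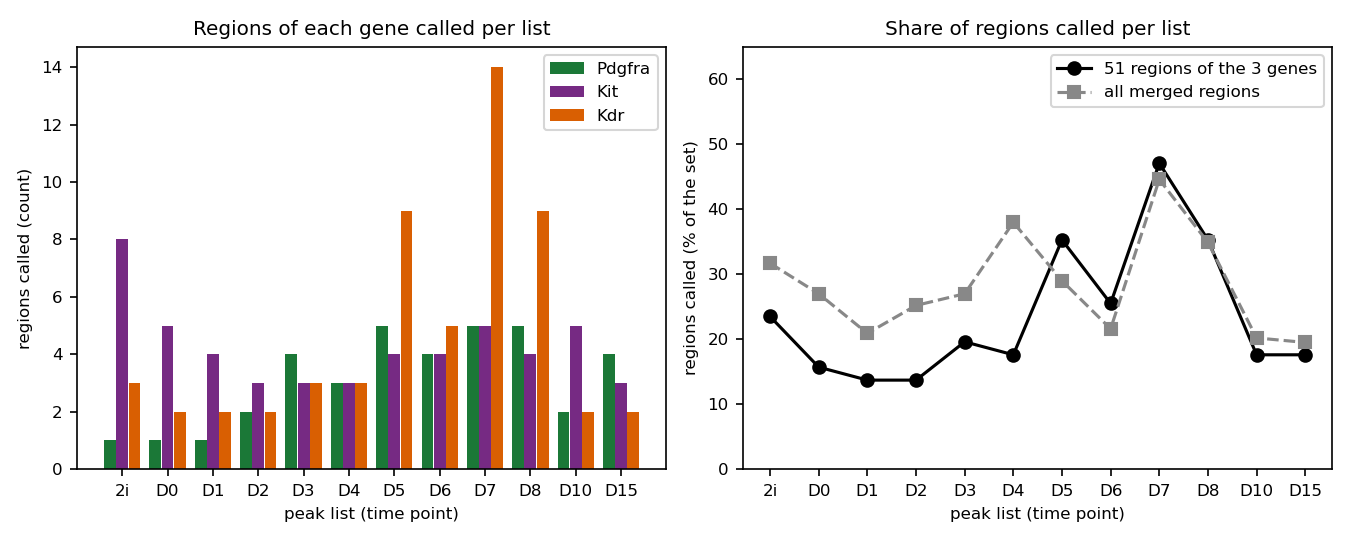
Left, the number of regions of each gene called per peak list. Right, the share of the 51 cluster regions and of all 128693 merged regions called per list, in percent. Kdr reaches 14 regions at D7, the longest list, and the cluster's share at D4 (17.6%) lies well below that of all regions (38.0%). At equal list length the gap at D4 was not the widest.

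How strongly a list could call a peak differed between time points. Among peaks enriched 4.9-fold to 5.1-fold, −log10 p had a median of 7.69 at 2i and 7.71 at D4, the lowest values, and of 11.6 at D3 and 11.5 at D15, the highest. List lengths ran from 31324 peaks at D1 to 66993 at D7. The part of either in the counts was not tested beyond the equal lists above. Sequencing depth is not given in the sources used here.

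Kit had the most sites called in stem cells. Of its 15 regions 8 were called at 2i, and in order 5, 4, 3, 3 and 3 on D0 to D4. There were 4, 4, 5 and 4 on D5 to D8, 5 on D10 and 3 on D15. The number stayed between 3 and 5 after 2i, but the regions behind it changed. All 4 early-lost regions of the cluster, called at 2i and D0 and at neither D10 nor D15, were those of Kit, a class that held 9.56% of all regions. The cluster's share in it was 7.84%. Where −log10 q was 5 or more, 2 of 28 cluster regions (7.14%) were early-lost, against 8.23% of all.

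A pair of these early sites lay inside the gene. The one 25.2 kb downstream of the start (75599808 to 75600642) had a fold enrichment of 5.06 at 2i, 4.20 at D0 and 4.12 at D1. Its −log10 q was 3.57 at D0 and 3.83 at D1. The one 51.5 kb downstream (75626079 to 75626948) had 4.81 at 2i, 5.74 at D0 and 3.36 at D1. Its D1 interval had a −log10 q of 1.91 and did not overlap that of D0. Neither was called from D2 on. The other pair lay upstream. The merged region 36.7 kb upstream (75537714 to 75538827) was called from 2i to D3, with 4.86 at 2i and in order 5.09, 4.51, 7.04 and 11.9 on D0 to D3. Its 2i interval, with a summit at 75537878, did not overlap those of D0, D2 and D3, with summits at 75538633 to 75538652. The wide D1 interval joined them, so the values do not follow 1 summit. On D3 the region was at the 74.1st percentile of its list with a −log10 q of 36.0, and at D4 the region was not called. The site 56.8 kb upstream (75517710 to 75518717) was called at 2i with 5.39, at D0 with 5.06 and at D2 with 3.19. A further 3 regions inside Kit, 1.8, 22.8 and 78.5 kb downstream, were called at 2i and in no other list. Their −log10 q was 9.28, 2.14 and 3.26 in that order.

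Other Kit sites were called later. A transient site 93.3 kb upstream (75481353 to 75482027) had a fold enrichment of 10.9 at D3, 7.25 at D4, 5.24 at D5 and 5.56 at D6. Its −log10 q was at least 5 in all 4 lists, so it is among the better supported sites of the gap between Pdgfra and Kit. Inside the gene, the site 21.5 kb downstream (75596238 to 75596814) was called from D6 on, in order 4.34, 10.4 and 8.78 on D6 to D8, then 5.54 on D10 and 6.20 on D15. No list called both this site and the early site at 25.2 kb. The site 159.5 kb downstream (75733982 to 75735065), in the gap towards Kdr, was called from D5 to D15. Its fold enrichment was in order 3.39, 5.56, 9.33 and 10.9 on D5 to D8, then 9.21 on D10 and 6.92 on D15. At D8 it stood at the 89.1st percentile of its list, with a −log10 q of 48.7, the highest rank in its own list of any cluster region in any list. These 2 sites are the late-gained regions of Kit, called at D10 and D15 and at neither 2i nor D0. A site 187.2 kb downstream (75761950 to 75762452) was called at D7 with 3.91, at D8 with 3.43 and at D10 with 5.41. The remaining 3 regions, 121.1, 114.9 and 10.3 kb upstream, were called in 1 or 2 lists, all with a −log10 q under 5.

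Kdr had the most regions. Of its 25 regions 3 were called at 2i, 2 on each of D0 to D2 and 3 on each of D3 and D4. There were 9, 5, 14 and 9 on D5 to D8, and 2 on each of D10 and D15. Of all regions, in order 29.0%, 21.6%, 44.6% and 34.9% were called on D5 to D8. With 30000 peaks per list Kdr had 4, 5, 3 and 3 regions on D5 to D8, and 1 or 2 in each other list. Where −log10 q was 5 or more it had 5, 3, 5 and 6 on D5 to D8, and 1 or 2 in each other list. Transient regions, with calls in neighbouring lists somewhere between D1 and D8 but outside that window in no list, numbered 14 in the cluster, and 10 of these were Kdr's. They made up 27.5% of the cluster's regions, against 14.7% of all regions. Without the D7 list the cluster had 8 transient regions of 47 (17%), against 9.41% of all. With 30000 peaks per list it had 5 of 31 (16.1%), against 11%, and where −log10 q was 5 or more it had 8 of 28 (28.6%), against 18.0%. The cluster's share was above that of all regions in each of these 4 settings, and the difference has no test. Inside the gene bodies alone 1 of 19 cluster regions was transient, so the transient regions lay mostly outside the genes.

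Upstream of Kdr the earliest of these sites were called at D4. The site 30.0 kb upstream (76008044 to 76008952) had a fold enrichment of in order 3.85, 7.92, 7.98 and 3.11 on D4 to D7. Its −log10 q was 5 or more at D5 and D6. A site 26.6 kb upstream was called at D4 with 4.62 and D5 with 2.67, and one 28.3 kb upstream at D7 with 3.06 and D8 with 3.61. All 3 lie in the annotated long non-coding RNA gene Gm32727, which also overlaps the Kdr start region. A site 44.7 kb upstream was called at D5 alone and one 35.7 kb upstream at D0 alone.

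Beyond the 3′ end of the gene, towards Kit, no Kdr region was called before D3. The site 78.0 kb downstream (75900153 to 75900787) had a fold enrichment of 4.94 at D5, 7.29 at D7 and 6.60 at D8, and it was not called at D6. The site 147.9 kb downstream (75830099 to 75830931) had in order 4.46, 4.99, 3.91 and 4.70 on D5 to D8. The one 58.4 kb downstream (75919820 to 75920273) had 4.00 at D6, 3.80 at D7 and 4.22 at D8. All 3 were called within D5 to D8 and in no other list. Transient sites called in 2 lists lay 158.9 and 107.1 kb downstream (both D7 and D8) and 56.5 kb downstream (D6 and D7). The other 5 regions of this stretch were called in 1 list each.

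Between the Kit and Kdr bodies, the assigned regions of both genes came to 13. None of them was called before D3, 1 was called on D3 and none on D4. There were 5, 4, 10 and 7 on D5 to D8, 2 on D10 and 1 on D15. This stretch was singled out after its values were seen. Of all regions, 52.3% were called in none of the lists from 2i to D2, and of the 51 cluster regions 36 were (70.6%). The stretch between Pdgfra and Kit is longer and had 10 regions, with 2 called at 2i and in order 2, 1, 2, 4 and 3 on D0 to D4. It had 3, 1, 1 and 0 on D5 to D8, and 1 on each of D10 and D15.

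Inside Kdr, the site 39.0 kb downstream (75939097 to 75939882) was the late-gained region of this gene. It was called at D7 with 2.63, at D10 with 2.85 and at D15 with 6.00, and its −log10 q reached 5 at D15 alone. The site 36.5 kb downstream (75941704 to 75942305) was called at 2i with 3.81, at D1 with 4.11 and at D3 with 2.87. No list called both. One site 40.4 kb downstream was called at D7 and D8. The remaining 5 regions inside the gene were each called in 1 list, with fold enrichments of 3.38 to 4.61. Of Kdr's 25 regions 12 were called in 1 list only, close to the share of all regions, 43.7%.

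A region just beyond the assignment rule was called from D4 to D10. It lies 87.4 kb upstream of the Kdr start (76065401 to 76066266), 86.3 kb from the Kdr body and 74.1 kb from that of Srd5a3, a steroid reductase gene, to which it was assigned. Its fold enrichment was in order 4.58, 7.80, 4.14, 6.12 and 4.07 on D4 to D8, and 3.13 on D10. The nearest region to it on the Kdr side of the rule was the site 44.7 kb upstream, called at D5 with 4.01.

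Pdgfra had 4 regions between 8.9 and 1.2 kb upstream of its annotated start. The site 3.5 kb upstream (75148424 to 75149045) was called without a gap from D2 to D8. Its fold enrichment was in order 4.13, 4.26 and 4.37 on D2 to D4, and 2.31, 2.13, 2.79 and 2.89 on D5 to D8. From D5 on it was among the weakest peaks of its list, between percentile 0.201 at D6 and percentile 6.48 at D8. The site 2.1 kb upstream (75149850 to 75150478) was called from D5 to D8, with 3.11, 2.95, 2.48 and 2.62 in that order. It too was weak, between percentile 1.74 at D7 and percentile 7.74 at D5, with a −log10 q under 5 at D7 and D8. The site 1.2 kb upstream (75150498 to 75151515), which reaches the outermost annotated bound of the gene, was called at D7 alone with 2.32. The site 8.9 kb upstream (75143068 to 75143595) was called from D5 through D15 and is the late-gained region of Pdgfra. It had in order 3.70, 5.00, 6.21 and 4.22 on D5 to D8, then 4.84 on D10 and 4.48 on D15. Its −log10 q was 3.19 at D5 and 4.82 at D15, and above 5 in the 4 lists between. This site lies in the long non-coding RNA gene Gm19583.

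Within the Pdgfra body, beside the region called throughout, a site 2.8 kb downstream was called at D15 alone with 2.64 and one 8.4 kb downstream at D8 alone with 3.2. Beyond the gene, towards Kit, 4 regions lay 70.8 to 233.7 kb downstream. The farthest (75385685 to 75386305) was called at D4 with 6.98 and at D5 with 4.01, and each of the others in 1 list. None of these 4 was called in more than 2 lists, so the sites called in several lists lay within 9 kb of the start.

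**Figure D3:**
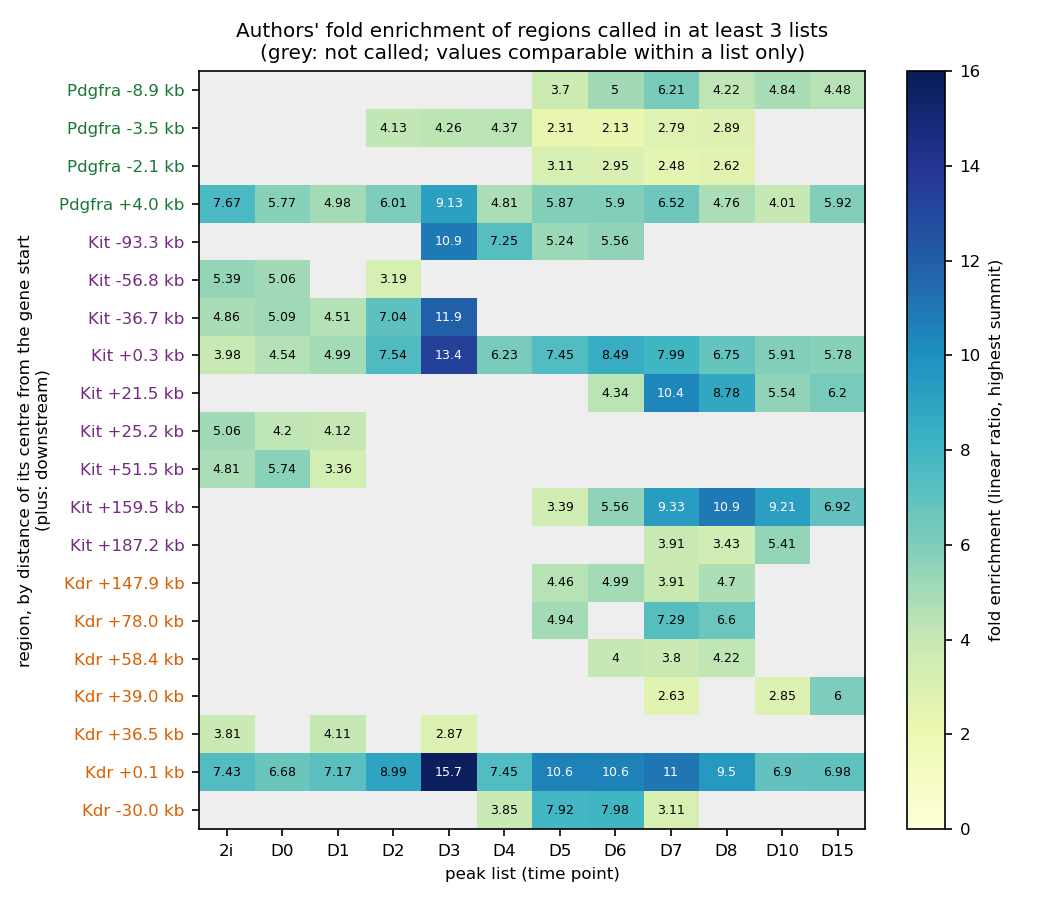
The authors' fold enrichment, as a linear ratio, of the 20 regions called in at least 3 lists, in genome order. Rows are named by gene and distance in kb from its annotated start, columns are peak lists, and grey means not called. The 3 regions called throughout fill their rows, the 4 early-lost Kit sites lie at the left, and 3 of the 7 Kdr sites were called within D5 to D8 alone.

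Of the 51 regions 20 were called in at least 3 lists, 39.2%, the same share as among all regions (39.2%). Those called in 1 list numbered 23 (45.1%), against 43.7% of all, and those called in all 12 lists 3 (5.88%), against 8.62%. Late-gained regions numbered 4 (7.84%), against 3.80% of all. The widths ran from 222 to 1774 bp, with a median of 528 bp for Pdgfra, 719 bp for Kit and 439 bp for Kdr, and the regions called throughout were the widest of each gene. With 25 regions Kdr was among the 3.51% of 19141 protein-coding genes with that many or more. The same share was 10.2% for Kit and 15.8% for Pdgfra, and the median gene had 3 regions.

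**Figure D4:**
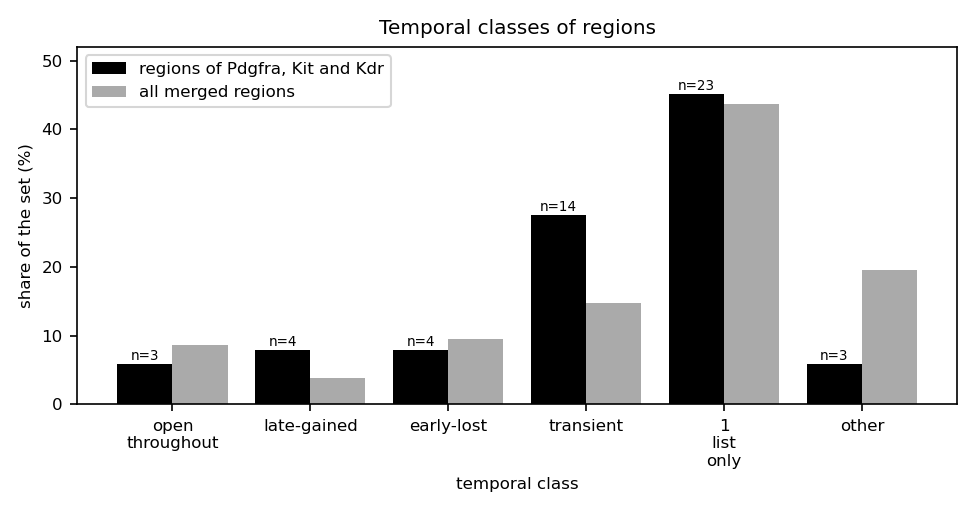
Share of the 51 cluster regions (black, with counts) and of all merged regions (grey) in each temporal class, in percent of the set. Transient regions made up 27.5% of the cluster and 14.7% of all regions, and regions called in 1 list only 45.1% and 43.7%.

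Since lists differ in length, the peaks assigned to each gene were also taken per 1000 peaks of the list. Several summits can share a region, and each was counted. The D15 list had 1.43 summits per interval, against 1.12 to 1.24 in the other lists. The 6 Pdgfra peaks at D15 came from 4 intervals, and 1 of the peaks had a −log10 q of 5 or more. Pdgfra had 0.0248 per 1000 at D0 (1 peak, exact binomial 95% interval 0.000627 to 0.138), 0.115 at D5 (0.0375 to 0.269), 0.119 at D7 (0.0516 to 0.235) and 0.166 at D15 (6 peaks, 0.0607 to 0.360). Kit had 0.217 at 2i (10 peaks, 0.104 to 0.399), 0.124 at D0 (0.0402 to 0.289), 0.0892 at D4 (0.0290 to 0.208), 0.214 at D10 (0.0862 to 0.442) and 0.110 at D15 (0.0301 to 0.283). Kdr had 0.0495 at D0 (2 peaks, 0.00600 to 0.179), 0.231 at D5 (10 peaks, 0.111 to 0.424), 0.224 at D7 (15 peaks, 0.125 to 0.369) and 0.110 at D15 (0.0301 to 0.283). The intervals cover counting error only. They overlapped among the lists named here for each gene, as counts this small allow.

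**Figure D5:**
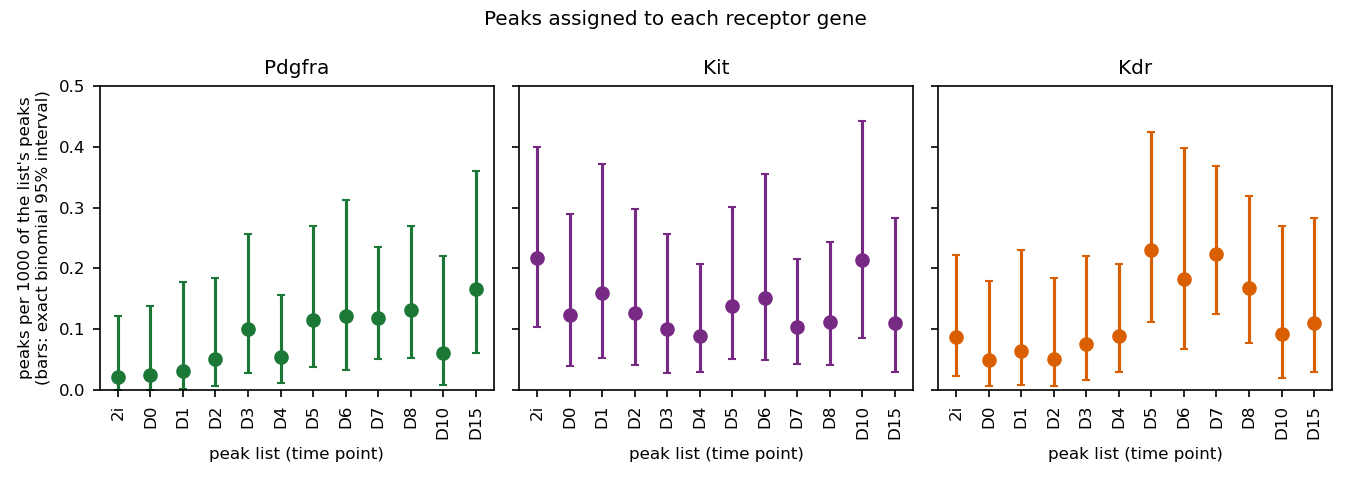
Peaks assigned to Pdgfra, Kit and Kdr per 1000 peaks of each list, with exact binomial 95% intervals that cover counting error only. The highest values were 0.166 at D15 for Pdgfra, 0.217 at 2i for Kit and 0.231 at D5 for Kdr, and the intervals are wide.

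A relation of this share with day was tested for every protein-coding gene with at least 20 peaks, over the 11 lists with a day. For Pdgfra, Spearman's rho was 0.84 (two-sided permutation p = 0.00245, adjusted p = 0.0626 over 7839 genes). The Pearson correlation, r, stood at 0.76 (permutation p = 0.00550, adjusted p = 0.0855). It became 0.91 when D10 and D15 were dropped and 0.50 when D0 and D15 were. Pdgfra missed the threshold of 0.05 after adjustment, while 1.73% of genes passed it with a higher share on later days and 0.906% with a lower one. Before adjustment 14.4% of genes had p under 0.05 with a higher share and 7.6% with a lower one. Pdgfra passed without the D10 list (rho = 0.98, permutation test, adjusted p = 0.0312) and with 2i placed before D0 (rho = 0.87, adjusted p = 0.0227). Restricted to peaks whose −log10 q was 5 or more, rho was 0.33 (permutation test, adjusted p = 0.615). With 30000 peaks per list rho was 0.71 (permutation test, adjusted p = 0.117). With each interval counted once it was 0.69 (permutation test, adjusted p = 0.14).

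For Kdr rho was 0.69 (permutation p = 0.0232, adjusted p = 0.163) and r was 0.36 (permutation p = 0.279, adjusted p = 0.543). With D10 and D15 dropped r was 0.84, and with D0 and D15 dropped 0.49. The values on D10 and D15 were below those on D5 to D8. For Kit rho was -0.02 (permutation p = 0.967, adjusted p = 0.989) and r was 0.10 (permutation p = 0.749, adjusted p = 0.882). Dropping D10 and D15 gave -0.24 and dropping D0 and D15 gave 0.36. None of the 3 genes passed as tested. The 6 flanking genes with enough peaks had a median rho of 0.62, against 0.13 for all genes. A course that goes up and then down, as described for Kdr, is not a trend with day and was not tested. The statistical weight of the lists was mostly higher on later days, so a trend with day and a trend with weight cannot be told apart.

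Genes with the most similar course were sought by Pearson's r of peaks per 1000 over the 12 lists, among 8594 other genes with at least 20 peaks. For Kdr these were Lpar3 (r = 0.93), a lysophosphatidic acid receptor, Supt3 (0.93) and Gata3 (0.91), a GATA transcription factor. For Pdgfra they were Ptgis, the prostacyclin synthase, Lsp1 and Exoc3l4, each with 0.94. For Kit they were Zfp292 (0.85), Lars2 (0.84) and Slc17a5 (0.83). Between the members, Kdr and Pdgfra had r = 0.67, Kit and Pdgfra had -0.44, and Kit and Kdr had -0.15. Pdgfra ranked 419 among the genes by closeness to Kdr, and Kdr 771 by closeness to Pdgfra. All these genes share the 12 lists and their lengths, so the values describe the lists and carry no test.

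Ligands, co-receptors and related receptors of the pathway were read from a list of 17 genes. The 13 of them with enough peaks gave 0 genes that passed in either direction after the permutation test and adjustment, where 2.64% of all genes did, and their median rho was 0.19, against 0.13 for all genes. Among the ligands, Vegfa, which binds Kdr, had rho = 0.74 (permutation p = 0.0133, adjusted p = 0.127). Its regions were 3 at 2i, 4 at D4, 10 at D7 and 2 at D15. Kitl, the Kit ligand, had 29 regions, with 9 at 2i, 13 at D4, 11 at D7 and 3 at D15. Pdgfa, a Pdgfra ligand, had 15 regions, with 3 at 2i, 6 at D5 and 3 at D15, and Pdgfc had 24, with 9 at 2i, 7 at D7 and 4 at D15. Flt1, a VEGF receptor on the same chromosome and also among the endothelial markers below, had 21 regions, 7 of them transient, with 3 at 2i, 12 at D7 and 5 at D15. Pdgfrb, the other PDGF receptor, had 9 regions, with 6 at D7, against 1 at 2i. These counts also follow list length: of all regions, 31.7% were called at 2i, 38.0% at D4, 29.0% at D5, 44.6% at D7 and 19.5% at D15. The co-receptors Nrp1 and Nrp2 had 37 and 34. Transient regions were 52 of the 256 of these 17 genes (20.3%), against 14.7% of all regions.

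Markers of cell types were read as genes with a summit within 1 kb of a gene end. Of 9 pluripotency markers 4 had one at D15, against 7 at 2i. Of 9 cardiomyocyte markers 3 had one at 2i, 6 at D5 and 3 at D15. Actn2 and Ryr2, components of the Z-disc and of calcium release, had one throughout and Tnnt2, a troponin, from D5 on, but Myh6 and Tnni3 had none in any list. Nkx2-5 had one at D0, D2, D3, D6 and D7, Myl7 at 2i, D4, D5 and D8, Nppa at D5 and D7, and Myh7 at D5 alone. By a different measure, peaks overlapped 39.6% of the windows around all annotated starts at 2i, 43.9% at D5 and 39.9% at D15. At D10 and D15, which the labels call cardiomyocytes, 3 of the 9 markers had such a summit. Of 8 primitive streak and early mesoderm markers 5 had one at 2i, in order 5, 2, 7 and 6 on D0 to D3, 7 on each of D4 to D8 and 3 on each of D10 and D15. Their peaks per 1000 were 0.654 and 0.714 on D3 and D4, when 3 Kdr regions were called. They were in order 0.831, 0.823, 0.582 and 0.559 on D5 to D8, when 9, 5, 14 and 9 Kdr regions were called, and 0.214 on D10. Of 9 endothelial markers 2 had one at 2i, in order 2, 0, 4, 3 and 6 on D0 to D4, 3, 3, 4 and 3 on D5 to D8, and 3 on each of D10 and D15. The count was highest at D4, the single list with a gene-end summit at Etv2, and Tie1 and Emcn were at 0 in every list. Endothelial peaks ran from 0.287 per 1000 at D1 to 1.06 at D5. Of 7 epicardial and fibroblast markers 2 had one at 2i, in order 3, 3, 5, 3 and 6 on D0 to D4, 5, 5, 7 and 7 on D5 to D8, 6 on D10 and 7 on D15. The Pdgfra site 8.9 kb upstream was called from D5 through D15, and its relation to these markers was not tested. Of 7 blood markers 1 to 3 had one in each list, with Gata1, Runx1, Ptprc and Itga2b at 0 throughout. Of 4 smooth muscle markers 3 had one at D15, against 0 at 2i. Of 4 melanocyte and mast cell markers 1 or 2 had one in each list, with Cpa3 at 0. The part of any of these cell types in the receptor sites was not tested.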

How the data were processed

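ATAC-seq peak lists of 12 time points were analysed, 1 list for the 2 replicates of each. The submitters' processing notes name MACS2 2.1.1, Picard, SAMtools 1.5, Bowtie2 2.3.2, cutadapt 2.10 and the build mm10. Settings, and the way replicates were combined, were not given in the sources used here. For every peak the authors deposited an interval and summit, a fold enrichment (a linear ratio), and a p-value and q-value, both as −log10, of which the q value was used as a score. The smallest deposited −log10 q was 1.30 to 1.31 in each list, and the values serve only within a list.

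Intervals that overlapped by at least 1 bp were merged over all lists with Python 3.11.15, NumPy 2.4.6 and pandas 2.3.3. Summits were assigned with RefSeq gene bounds of GRCm38.p6 (21627 protein-coding genes) to the gene that holds them or to the nearest within 200 kb. Sequences and starts are RefSeq's of the same assembly, and all 3 members matched by symbol. Trends used 100000 reassignments of days to whole lists with Benjamini-Hochberg adjustment, and the script was tested on simulated data. Regions called in at least 3 lists were described singly, and the 3 genes of most similar course were named for each member. Members, gene lists, classes and tests were chosen with earlier results of these data known. A genome sequence was not used here, so motifs in distal regions were not searched.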

Additional observations from a re-analysis of the deposited data

How the results depend on the processing

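No paired analysis was possible because 1 peak list stands for both replicates of a time point. Restricted to peaks whose −log10 q was 5 or more, the cluster had 28 regions, 2 late-gained, 2 early-lost and 8 transient ones, and 26 peaks for Pdgfra and 36 for Kdr, where all peaks gave 51, 4, 4 and 14 regions and 44 and 65 peaks. With 30000 peaks per list there were 31 regions, 5 of them transient, with 26 peaks for Pdgfra and 35 for Kdr. Within 50 kb of the genes 9 regions were transient, and inside the gene bodies there were 19 regions, with 2 late-gained, 2 early-lost and 1 transient. Where a list had to cover at least 50% of a region, 0 regions were open throughout and 2 were late-gained, by the construction of wide merged regions. Without D7, 8 were transient. Chaining summits within 250 bp left the number of regions, the 4 classes above and their calls within 1.5 times. Leaving out each list in turn gave rho of 0.78 to 0.98 for Pdgfra, 0.59 to 0.77 for Kdr and -0.27 to 0.15 for Kit. The Kit rho moved either way and passed in no alternative: it was -0.58 within 50 kb (permutation test, adjusted p = 0.273), 0.09 for peaks whose −log10 q was 5 or more, 0.21 with 30000 peaks per list and 0.00 with each interval counted once (adjusted p up to 1.0). Pdgfra passed with 2i before D0 (rho = 0.87, permutation test, adjusted p = 0.0227), and its adjusted p ran from there to 0.615. The cause of these changes was not tested. Without depths, an absent call sets no limit on openness.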

Other observations

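Regions on the far side of Pdgfra, beyond the homeobox gene Gsx2 and assigned to Chic2, followed several courses. The region 246.5 kb upstream of the Pdgfra start (chromosome 5, 74905214 to 74906328) was called from D3 to D15. Its fold enrichment by the authors' own peak values was in order 6.31 and 6.86 on D3 and D4, 13.2, 16.5, 13 and 11.8 on D5 to D8, and 7.93 and 4.37 on D10 and D15. A region 210.6 kb upstream (74941290 to 74942059) was called from D3 to D10, and one 231.3 kb upstream (74920445 to 74921456) from D4 to D8. Close to Gsx2, the region 84.9 kb upstream of Pdgfra (75066971 to 75067764) was called in 11 lists and not at D15.

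The 8 flanking protein-coding genes had 86 regions, 54 of them called at D7 and 16 at 2i. Of all regions, 44.6% were called at D7, the longest list, and 31.7% at 2i. Their transient regions were 17 (19.8%), against 14.7% of all regions. Of the 6 with enough peaks for the trend with day the median rho was 0.62, against 0.13 for all genes, and 0 passed after adjustment by the permutation test, with Scfd2 nearest (rho = 0.81, permutation p = 0.00391, adjusted p = 0.0757) and Lnx1 at rho = 0.73 (permutation p = 0.0146, adjusted p = 0.132).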
